A study of Rattus norvegicus with 145 samples.

Results

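The comparison described here set the striatum of 3 Q130 knock-in (KI) rats against that of 3 wild type (WT) rats at 2 months of age, the youngest age in the series. All 6 animals were male Long Evans rats, the KI animals carried the knock-in in heterozygous form, and each animal gave 1 library. They were taken by their labels for genotype, region and age, and make up 6 of the 145 libraries of a series that also covers cortex, cerebellum and later ages up to 24 months. Per the series' design text, the 2-month and 6-month striatum came from earlier work and was added to follow reproducibility and batch, so these 6 libraries are not from the same study round as those of 10, 19 and 24 months. No treatment is given for either genotype. The animal identifiers have a first part that 2 KI animals (M1 and M3) and 2 WT animals (M1 and M3) share, and another that KI M2 and WT M2 share. The labels do not say whether animals with the same first part were littermates.

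In Huntington's disease a stretch of CAG repeats in the gene for huntingtin is too long, which lengthens a run of glutamines in the protein. The striatum is the brain region hit hardest. Most of its neurons are medium spiny neurons, which release GABA, receive glutamate input from the cortex and thalamus and dopamine input from the midbrain, and depend on cAMP signalling through dopamine and adenosine receptors. Loss of transcripts typical of these neurons is a known feature of the disease and of its animal models. The files give genes as Ensembl identifiers without symbols, so genes are described by identifier, by abundance and by the brain region in which WT animals express them most. For the same reason the targeted huntingtin gene was not singled out, and it may be among the genes described by identifier.

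The 6 libraries were alike in depth and in the number of identifiers counted. Their estimated counts summed to between 29833476 and 33737984 in KI and between 30589265 and 31585307 in WT. The number of identifiers with a count above 0 ran from 18390 to 18654 in KI and from 18557 to 18568 in WT. Of 32883 identifiers in the table, 20713 had a count in at least 1 of the 6 libraries and 15407 passed the count filter and were tested. Spearman correlations of log2 CPM (CPM, counts scaled to a common library size by TMM) ran from 0.994 to 0.995 within KI, from 0.995 to 0.996 within WT and from 0.994 to 0.996 between the genotypes, so the ranges overlapped. Every pair differed by more than sampling noise, with a mean chi-square per gene between 4.3 and 14.8 where noise alone gives about 1. All 6 libraries carried the male pattern of 5 male-biased genes and 1 female-biased gene defined in WT cortex of 19 months.

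The tissue was striatal by its own region-enriched genes. Region-enriched genes were those with a mean of at least 1 CPM in a region of WT rats of 19 months and a level there of at least 4 times that of each of the other regions. With all 145 libraries scaled together, the 282 striatum-enriched genes had a mean log2 CPM at 2 months of 3.09 (M1), 3.00 (M2) and 2.92 (M3) in KI, against 2.93 (M1), 2.87 (M2) and 2.92 (M3) in WT. The same genes averaged 3.19 ± 0.184 in WT striatum of 19 months (SD, n = 10), 0.378 ± 0.198 in WT cortex and -0.565 ± 0.195 in WT cerebellum (SD, n = 10 each). On the same scale the 188 cortex-enriched genes stood at 0.399, 0.295 and 0.527 in the 3 KI libraries and at 0.376, 0.697 and 0.625 in the 3 WT libraries, where WT cortex of 19 months had 3.37 ± 0.0507 and WT striatum of 19 months -0.0461 ± 0.131 (SD, n = 10 each). All 6 libraries thus lay near striatum and far from cortex, and their cortex-enriched levels were not equal among themselves.

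KI and WT striatum at 2 months differed little gene by gene. With edgeR's quasi-likelihood test 0 of 15407 genes (0%) passed a Benjamini-Hochberg adjusted p of 0.05, and the smallest adjusted p was 0.238 (n = 3 per genotype). At an unadjusted edgeR p under 0.05 there were 958 genes, 6.22% of those tested, of which 451 (2.93%) were higher and 507 (3.29%) lower in KI. DESeq2 passed 17 genes, 9 higher and 8 lower, and limma-trend on the length-scaled values passed 0 with a pseudocount of 0.1 and 2 with a pseudocount of 1. The 3 KI and 3 WT values did not overlap for 1722 genes (11.2%), with 5.38% of genes higher and 5.8% lower in KI. With 20 possible splits of the animals, random labels would leave a share of about 0.1 without overlap.

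The differences that stood out most were small. The median absolute log2 difference was 0.078 over all genes tested and 0.232 over the 958 genes with an unadjusted p under 0.05. Only 75 of 15407 genes (0.487%) differed by 2-fold or more, 37 higher and 38 lower, and their median level was 0.689 CPM, so they were rare transcripts. Precision followed abundance. The median standard error of the log2 difference was 0.367 for genes under 1 CPM, 0.112 for those from 4 to 16 CPM and 0.0571 for those over 64 CPM. The share with an unadjusted p under 0.05 was 4.34%, 5.44% and 8.87% in these classes. Among abundant genes over 64 CPM 166 of the 258 were higher in KI and 92 lower, whereas among those from 1 to 4 CPM 27 of 92 were higher and 65 lower. No identifier that was counted in all 3 libraries of 1 genotype and in 0 of the other passed the count filter; there were 25 such identifiers counted in KI alone and 26 in WT alone.

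**Figure D1:**
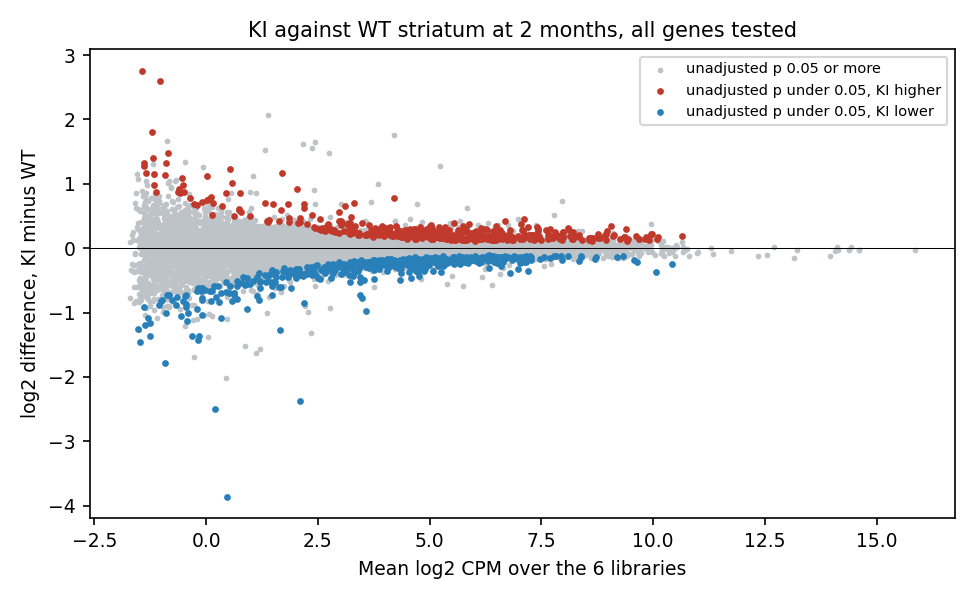
The log2 difference of KI minus WT striatum at 2 months is plotted against mean log2 CPM for all 15407 genes tested, with 1 point a gene. The 451 genes higher and 507 genes lower in KI at an unadjusted edgeR p under 0.05 lie close to 0 at high abundance, and differences of 2-fold or more sit mostly at low abundance.

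Of the 15407 genes, ENSRNOG00000011073 had the smallest p, and it was lower in KI. It stood at 103, 93.0 and 92.9 CPM in KI M1, M2 and M3, against 124, 131 and 123 CPM in WT M1, M2 and M3. The highest KI animal thus lay below the lowest WT animal. The genes named here were picked among those whose groups did not overlap, so such separation is no further support. The means were 96.3 ± 5.79 CPM in KI and 126 ± 4.33 CPM in WT (SD, n = 3 each). The log2 difference was -0.38 ± 0.0572 (SE), 76.6% of WT, with an unadjusted p of 3.67e-05 and an edgeR adjusted p of 0.238. DESeq2 gave this gene an adjusted p of 7.44e-05. It was not a regional gene: in WT rats of 19 months it stood at 139 ± 13.1 CPM in striatum, 146 ± 19.9 CPM in cortex and 218 ± 17.7 CPM in cerebellum (SD, n = 10 each). KI rats of 19 months had 95 ± 15.4, 117 ± 14.9 and 153 ± 23.8 CPM in the same order (SD, n = 10 each). The KI mean was thus the lower one in each region, not in striatum alone.

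ENSRNOG00000011073 is also the identifier that earlier results of these data showed lower in KI at later ages, in other animals. At 6 months its level ran over 90.5, 95.8 and 97.9 CPM in KI, against 95.5, 103 and 125 CPM in WT, and the groups overlapped. Its KI level as a share of WT was 76.6% at 2 months, 87.9% at 6, 72.7% at 10, 68.5% at 19 and 62% at 24 months. The edgeR adjusted p was 0.652 at 6 months, 0.00655 at 10, 0.0247 at 19 and 0.998 at 24 months. At 24 months the unadjusted edgeR p was 0.000366, with 7 KI and 4 WT libraries. Among these ages the lowest WT library lay above the highest KI library at 2, 10 and 24 months. The log2 difference at 2 months minus that at 6 months was -0.21 ± 0.125 (SE; edgeR adjusted p = 0.709), so a change between these ages was not shown.

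Among genes higher in KI, the one with the smallest p was ENSRNOG00000058920, a rarer transcript. It had 4.76, 5.83 and 5.32 CPM in KI M1, M2 and M3, against 2.86, 2.67 and 2.86 CPM in WT M1, M2 and M3. All 3 KI values lay above all 3 WT values, which was a condition of the choice. The log2 difference was 0.92 ± 0.138 (SE), 189% of WT (edgeR adjusted p = 0.238, DESeq2 adjusted p = 0.00312). At 6 months its values were 3.32, 4.18 and 6.68 CPM in KI, against 5.41, 6.34 and 6.48 CPM in WT, so the KI mean was then the lower one. The difference of the 2 genotype effects was a log2 value of 1.27 ± 0.292 (SE), with an unadjusted p of 0.000685 and an edgeR adjusted p of 0.709. The WT level at 2 months, 2.80 ± 0.111 CPM (SD, n = 3), was also the lowest WT mean of the 5 ages, each scaled on its own. At 10, 19 and 24 months the WT means were 5.95 ± 1.44 (n = 10), 3.91 ± 1.58 (n = 10) and 5.93 ± 0.677 CPM (n = 4; SD).

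ENSRNOG00000017833, next among the genes higher in KI, is a striatal gene. In WT rats of 19 months it stood at 131 ± 14.1 CPM in striatum, 16.2 ± 3.86 CPM in cortex and 0.643 ± 0.294 CPM in cerebellum (SD, n = 10 each). At 2 months it had 123, 124 and 106 CPM in KI M1, M2 and M3, against 85.9, 86.2 and 90.2 CPM in WT M1, M2 and M3. The groups did not overlap, and KI M3 lay nearest to WT. The log2 difference was 0.43 ± 0.0656 (SE), 135% of WT (edgeR adjusted p = 0.238, DESeq2 adjusted p = 6.62e-05). With each library's cortex-enriched level in the fit, added after the data were seen, the log2 difference was 0.35 (edgeR adjusted p = 0.999). The edgeR adjusted p in that fit was also 0.999 for the other named genes, and the smallest over all genes was 0.861. Their log2 differences there were 0.864 (ENSRNOG00000058920), -0.376 (ENSRNOG00000011073) and -0.41 (ENSRNOG00000020360), close to those without the covariate. That fit spends 1 more coefficient on the 6 libraries, so its p-values are not like for like. Without KI M3 the log2 difference of ENSRNOG00000017833 was 0.50 (edgeR adjusted p = 0.00798). At later ages the groups overlapped, with log2 differences of 0.07 at 6 months, 0.02 at 10, -0.03 at 19 and -0.48 at 24 months.

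Another gene lower in KI, ENSRNOG00000020360, was chosen for description with its values already seen. It had 32.6, 33.4 and 33.5 CPM in KI M1, M2 and M3, against 44.4, 40.6 and 43.7 CPM in WT M1, M2 and M3. The KI values were close together and all below WT. The log2 difference was -0.37 ± 0.0589 (SE), 77.2% of WT (edgeR adjusted p = 0.238, DESeq2 adjusted p = 0.00312). At 6 months the KI mean was 86.1% of WT (unadjusted p = 0.0495, edgeR adjusted p = 0.604). At 10, 19 and 24 months it was 97.8%, 94.9% and 95.9%, with overlapping groups. Per length, on the deposited TPM-scale values, the 4 genes averaged 12 (ENSRNOG00000011073), 15 (ENSRNOG00000058920), 64.9 (ENSRNOG00000017833) and 15.8 (ENSRNOG00000020360) in KI, against 15.6, 7.87, 48.0 and 20.3 in WT in the same order.

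**Figure D2:**
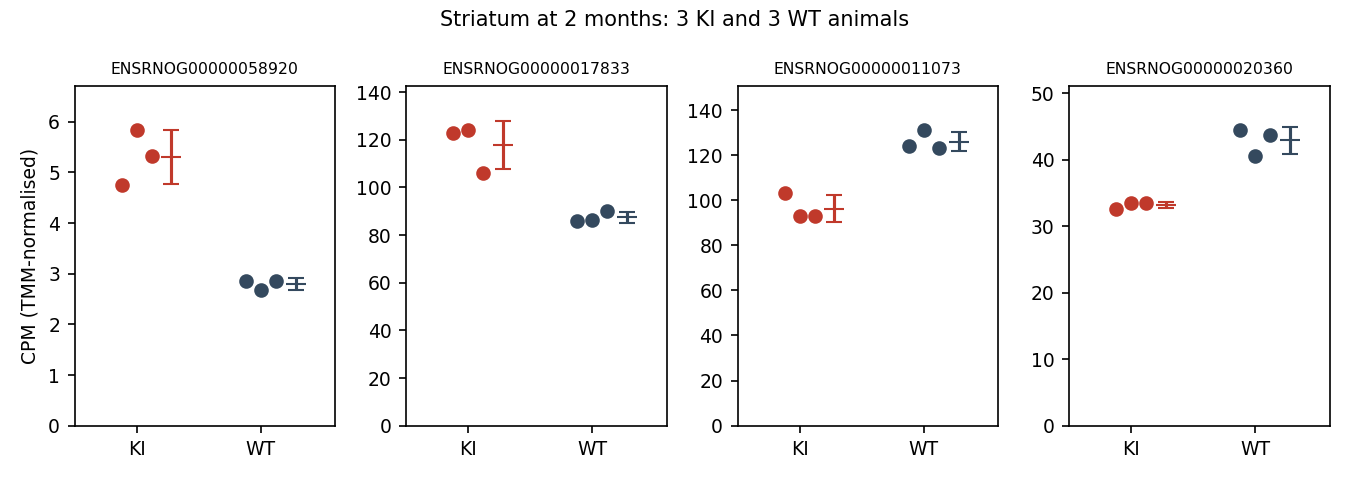
CPM of the 4 named genes in each of the 3 KI and 3 WT striatum libraries at 2 months, with 1 point a library and the mean ± SD beside the points. The 4 genes were picked among those whose KI and WT points do not overlap, so the separation in each panel follows from the choice. ENSRNOG00000058920 shows the largest relative gap of the 4, at 189% of WT.

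**Figure D3:**
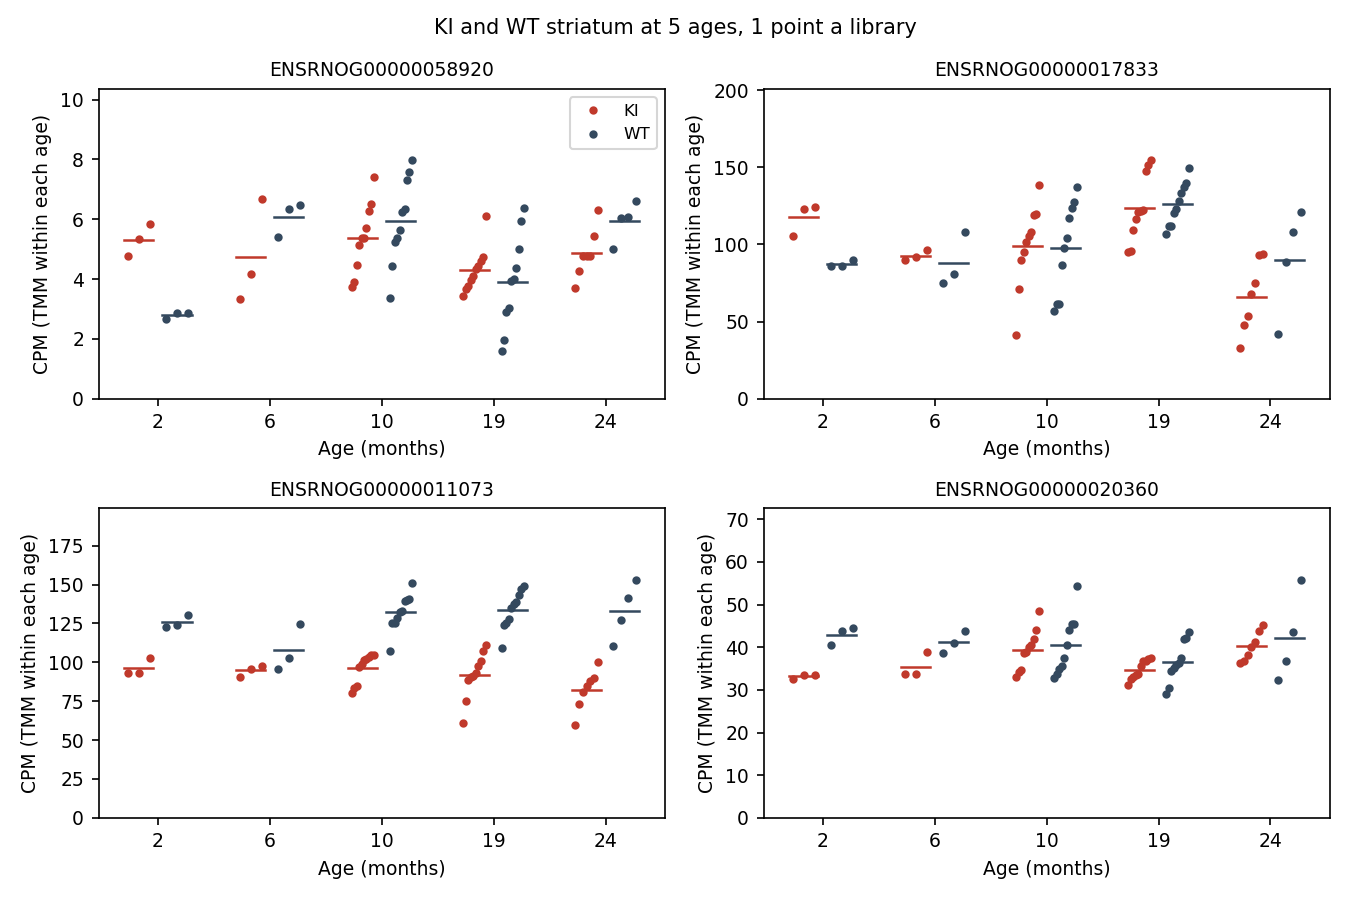
CPM of the same 4 genes in KI and WT striatum at 2, 6, 10, 19 and 24 months, with 1 point a library and a line at the mean; animals differ between ages. ENSRNOG00000011073 has the lower mean in KI at each age, from 87.9% of WT at 6 months to 62% at 24 months, with overlapping groups at 6 and 19 months. ENSRNOG00000020360 also has the lower KI mean at each age. The 3 genes other than ENSRNOG00000011073 overlap between genotypes at every age from 6 months on.

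Genes that the striatum expresses above the other regions leaned higher in KI at 2 months. Of 282 striatum-enriched genes, 179 were above 0 and 103 below, with a median log2 difference of 0.097, where the median over all genes tested was -0.00294. At an unadjusted edgeR p under 0.05 48 of them were higher and 2 lower, 17.7% of the group against 6.22% of all genes. These 48 had log2 differences from 0.133 to 0.777 with a median of 0.285, and 25 of them did not overlap between the groups, where 694 of all 958 genes at that p did not. They ranged in level from 0.564 to 1510 on the TPM scale. They made up 10.6% of all genes higher in KI at that p, where striatum-enriched genes were 1.83% of genes tested. None of the 282 passed the edgeR adjusted threshold. In bulk tissue a larger share of the cells that express such genes and more RNA per cell cannot be told apart.

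Cortex-enriched genes leaned the other way. Of 143 tested, 29 were above 0 and 114 below, with a median log2 difference of -0.153, and at an unadjusted edgeR p under 0.05 0 were higher and 11 lower, 7.69% of the group against 6.22% of all genes. The 237 cerebellum-enriched genes had a median of -0.0219, with 8 higher and 10 lower at that p, 7.59% of the group. Scaled over the 6 libraries alone, the striatum-enriched genes averaged a log2 CPM of 3.00, 2.92 and 2.85 in KI M1, M2 and M3, against 2.86, 2.79 and 2.85 in WT M1, M2 and M3. KI M3 lay within the WT range, so the groups overlapped. The means were 2.92 ± 0.0765 in KI and 2.83 ± 0.0368 in WT (SD, n = 3 each; exact permutation test, 2-sided p = 0.3). The cortex-enriched genes averaged 1.22, 1.14 and 1.37 in KI M1, M2 and M3, against 1.28, 1.54 and 1.5 in WT M1, M2 and M3 (exact permutation test, 2-sided p = 0.2). Here KI M3 and WT M1 lay inside the range of the other genotype. With 20 splits of the 6 animals, 2-sided, the exact test cannot go below p = 0.1.

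**Figure D4:**
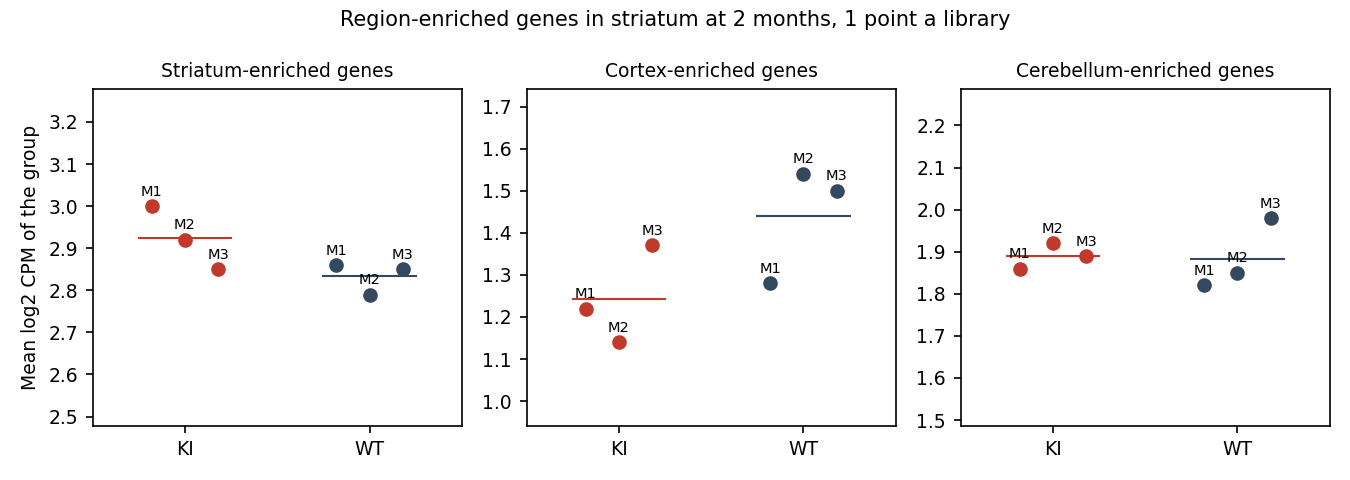
Mean log2 CPM of striatum-enriched, cortex-enriched and cerebellum-enriched genes in each of the 3 KI and 3 WT striatum libraries at 2 months, with library labels and a line at the group mean. The vertical axes are cut to a window of equal height. Striatum-enriched genes average 2.92 in KI and 2.83 in WT, cortex-enriched genes 1.24 in KI and 1.44 in WT, and the libraries of the 2 genotypes overlap in all 3 panels.

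The lean in striatum-enriched genes changed between fits, and the counts of all genes past the unadjusted p changed too. With each library's cortex-enriched level as a covariate, added after the data were seen, 6 striatum-enriched genes were higher and 3 lower at an unadjusted edgeR p under 0.05. Over all genes that fit gave 182 higher and 201 lower, against 451 and 507 without the covariate. The striatum-enriched median was then 0.0413, and 161 of 282 were above 0, against 179 without the covariate. Without KI M3 68 striatum-enriched genes were higher and 2 lower, where all genes gave 955 and 979. Without KI M1 23 were higher and 2 lower, without KI M2 24 and 1, without WT M1 30 and 1, without WT M2 35 and 12, and without WT M3 36 and 2. Over all genes these fits gave between 607 (without WT M1) and 962 genes (without WT M2) at that p, in either direction. With all striatum libraries of 5 ages sharing 1 estimate of the spread, the counts were 0 and 1, where all genes gave 52 and 72. The number above 0 lay between 171 and 192 in each of the 6 fits that left out 1 library. The part of cortex-enriched RNA in this lean was not tested.

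Genes were also sorted by their ratio of striatum to cortex in WT rats of 19 months. Over all 15079 genes the Spearman correlation of this ratio with the KI minus WT difference at 2 months was 0.0153, close to 0, and the medians furthest from 0 were those of the outer classes. Genes are not independent replicates, and the correlation is a description. At 2 months the 344 genes at least 4-fold higher in striatum had a median log2 difference of 0.094 in KI against WT, with 57 higher and 6 lower at an unadjusted edgeR p under 0.05 (18.3% of the class, where all genes tested gave 6.22%). The 837 genes 2-fold to 4-fold higher in striatum had a median of 0.0303, with 62 and 24 (10.3%). The 12792 genes within 2-fold had a median of -0.00223, with 295 higher and 403 lower (5.46%). The 327 genes at least 4-fold higher in cortex had a median of -0.135, with 3 higher and 22 lower (7.65%, near the share over all genes). At 10 and 24 months the order of these medians was the opposite one. Genes at least 4-fold higher in striatum had medians of 0.0201 at 6 months, -0.083 at 10 months and -0.423 at 24 months, and those at least 4-fold higher in cortex had medians of -0.174, 0.0919 and 0.292. At 24 months KI M1 and KI M2 had the highest cortex-enriched level, and without them the striatum-enriched median was -0.284 and the cortex-enriched median 0.0489, against -0.444 and 0.343 with all libraries. Whether the medians differed between ages was not tested.

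**Figure D5:**
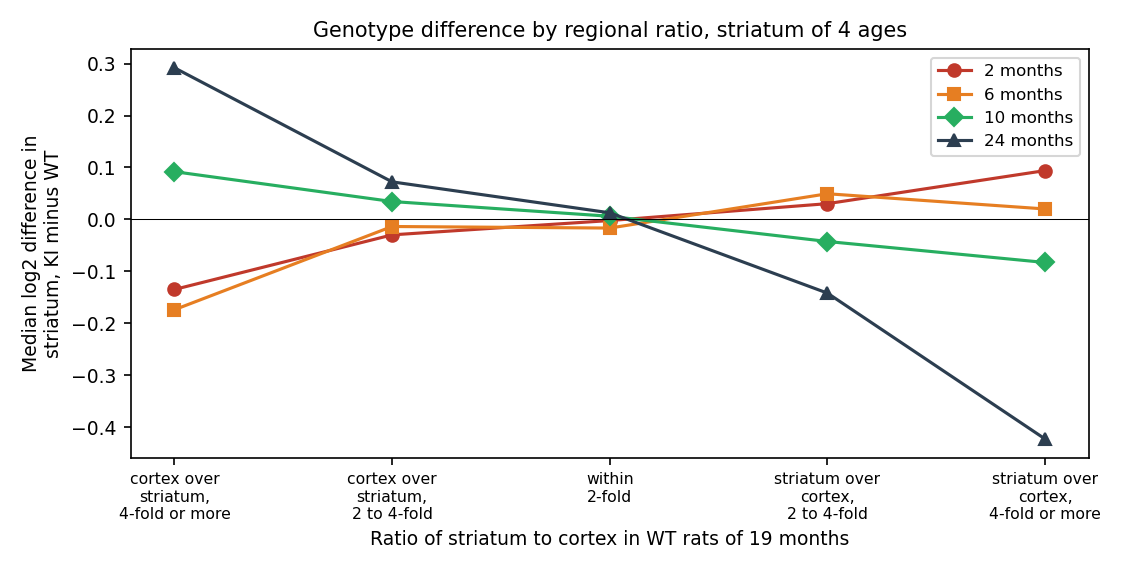
Median log2 difference of KI minus WT striatum for genes sorted by their ratio of striatum to cortex in WT rats of 19 months, with 1 line for each of 4 ages; the 19-month libraries set the sorting and are left out. At 2 months the medians run from -0.135 at the cortex end to 0.094 at the striatum end, and at 24 months from 0.292 to -0.423.

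The difference at 2 months was compared with that at 6 months, the other age of the earlier work. The KI effect at 2 months minus that at 6 months passed edgeR's adjusted threshold for 0 of 15737 genes (0%), with a smallest adjusted p of 0.331. At an unadjusted p under 0.05 there were 1064 genes (6.76%), of which 330 had the higher and 734 the lower KI effect at 2 months. DESeq2 passed 1 gene. Without WT M1 of 6 months 100 genes passed, 4 with the higher and 96 with the lower effect at 2 months.

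The genes that leaned 1 way at 2 months were set beside the same genes at later ages. For those higher in KI at 2 months, the share higher in KI was above that of all genes at 6 and 10 months and below it at 19 and 24 months. These shares were not tested, and they were not matched for abundance. Of the genes higher in KI at 2 months 166 lay over 64 CPM, where 2908 of all 15407 tested did. Of the 451 genes higher in KI at an unadjusted edgeR p under 0.05, 243 of 444 tested at 6 months (54.7%) were higher in KI there, where 46.7% of all genes tested at both ages were. The shares were 62.7% of 445 at 10 months, 30.9% of 446 at 19 months and 21.2% of 448 at 24 months, where all genes gave 52.3%, 53.4% and 52.7%. Their median log2 differences were 0.0177 at 6 months, 0.0219 at 10, -0.0391 at 19 and -0.159 at 24 months. Of the 507 genes lower at 2 months, 53.5% were lower in KI at 6 months, 52.3% at 10, 45.8% at 19 and 36.5% at 24 months, where all genes gave 53.3%, 47.7%, 46.6% and 47.3%. At 24 months 63.5% of these lower genes were thus higher in KI. Without KI M1 and KI M2 of that age 53% of 498 were, where all genes gave 52.6%, so that lean rested on those libraries. The libraries differ between ages, so no control is shared. Without the 3 groups of region-enriched genes the share of the 2-month higher genes that was higher in KI was 23.2% at 24 months. All genes outside those groups gave 53.3%. Genes 2-fold to 4-fold higher in striatum than in cortex had a median of -0.142 at 24 months, and the part of regional genes was not tested. With region-enriched genes kept and KI M1 and KI M2 of 24 months left out, the share was 30% of 447, where all genes gave 52.6%. At 6 months without WT M1 it was 49.4% of 447, where all genes gave 48.1%. At 19 months without KI M5, whose cortex-enriched level stood apart, it was 28.4% of 447, where all genes gave 52%.

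Few genes pointed 1 way throughout, both among the 2-month genes and among all genes tested. Of 440 genes higher at 2 months and tested at all 5 ages, 18 were higher in KI at each of the other 4 ages and 36 were lower at each of them. Of 490 genes lower at 2 months, 27 were lower at each of the other 4 ages and 25 higher at each. Over all 14997 genes tested at every age these numbers were 761 higher and 719 lower at the 4 later ages. The counts that kept the 2-month direction were thus near the shares over all genes. The 36 of 440 were a larger share than the 719 of 14997, which was not tested. At the later ages edgeR's adjusted threshold passed 0.013% of genes in striatum at 6 months, 0.00654% at 10, 0.0196% at 19 and 0% at 24 months, 5 identifiers in all. Of these, 3 were tested at 2 months, and 1 of the 3, ENSRNOG00000011073, had an unadjusted p under 0.05 there.

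The genes that distinguish KI from WT cerebellum in old rats showed no common direction in striatum at 2 months. That threshold passed 2.33% of genes in cerebellum at 19 months and 2.17% at 24 months. Of 61 genes that passed edgeR's adjusted threshold as higher in KI cerebellum at both 19 and 24 months, 59 were tested, with 34 above 0 and 25 below and a median log2 difference of 0.0252. At an unadjusted edgeR p under 0.05, 4 were higher and 4 lower, 13.6% of the set against 6.22% of all genes. Of 78 genes lower in KI cerebellum at both ages 74 were tested, with 42 above 0 and 32 below and a median of 0.0348. Of these 7 were higher and 3 lower at that p, 13.5% of the set.

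Differences by identifier part were about as frequent as those by genotype at an unadjusted p, and more frequent at the adjusted threshold. Genotype gave 0 genes at an adjusted edgeR p under 0.05 and 958 (6.22%) at an unadjusted p under 0.05. Evenly spread p-values would give 770.4 genes at that unadjusted p. With genotype in the fit, KI M2 and WT M2 differed from the 4 animals of the other identifier part for 16 genes at an adjusted edgeR p under 0.05 (0.104%), 4 of them higher in the M2 animals, and for 993 genes (6.45%) at an unadjusted p under 0.05. The first principal component of log2 CPM held 28.3% of the variance and placed KI M2, WT M2 and KI M1 on one side, at -26.2, -9.88 and -5.50, and WT M1, KI M3 and WT M3 on the other, at 7.30, 15.8 and 18.4. The second component, with 19.6% of the variance, put all 3 KI libraries above all 3 WT libraries, at 14.3, 9.58 and 6.01 in KI M1, M2 and M3, against -7.44, -24.9 and 2.36 in WT M1, M2 and M3. Each library's deviation from the mean of the 6 had a Spearman correlation with effective transcript length (the estimated count over the TPM-scale value), across 15407 genes, of 0.157 (M1), -0.131 (M2) and -0.0953 (M3) in KI, against -0.000844 (M1), 0.189 (M2) and -0.143 (M3) in WT. The KI minus WT difference had a correlation of -0.041 with length. Genes are not independent replicates, and these correlations are descriptions. With only the 4 animals of 1 identifier part, 2 per genotype, 4 genes passed edgeR's adjusted threshold, 1 higher and 3 lower, and 0 of the 4 named genes were among them.

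The count of genes past the threshold moved most when KI M3 was left out. Without it 36 of 15599 genes (0.231%) passed edgeR's adjusted threshold, 31 higher and 5 lower in KI, and 9 of the 36 were striatum-enriched. Of the 35 that were also tested with all 6 libraries, 29 had an unadjusted p under 0.05 there. In KI M3 itself 15 of these 35 lay within the range of the 3 WT animals and 14 lay beyond it on the side of the other KI animals. Their median absolute log2 difference was 0.403 without KI M3 and 0.286 with it. These genes were picked in the fit without KI M3 and against the same WT animals, which favours larger differences there. The values are therefore no separate evidence on KI M3. Leaving out any other animal gave between 0 and 3 genes.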

How the data were processed

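Bulk RNA sequencing of KI and WT striatum at 2 months (3 male rats each) was analysed, with other ages and regions for comparison. Dissected tissue had been frozen on dry ice and its RNA purified with a Qiagen kit, per the labels' protocols. The deposited table of estimated counts (8.12% of cells not whole) was made by the authors. Per the file headers its reference was Rat.B6.0. Rounding to whole numbers was done for the tests. Values in the other deposited table, labelled FPKM, sum to 1000000 in each library and were treated as TPM. The sources used here do not name the aligner, counting tool or annotation. Of the 32883 identifiers 0 matched the gene table used, so 19 gene lists and the cell type markers by symbol were not tested and no sequences are shown.

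Genes were tested with edgeR 4.0.16 in R 4.3.3 (TMM, filterByExpr, robust quasi-likelihood F test, sex as a covariate at 10, 19 and 24 months), with a threshold of 0.05 on the Benjamini-Hochberg adjusted p. Alternatives used DESeq2 1.42.0 and limma 3.58.1. The fits were tested on simulated data. Standard errors are those of the log2 difference. Gene-level p-values set a difference against the spread between animals, estimated with help from all genes. They take the animals as independent, although some share an identifier part. Counts limit precision for rare genes.

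The members, gene groups and comparisons were chosen with earlier results of these data known. The genes named by rule were the 2 higher and 1 lower with the smallest edgeR p among those of mean log2 CPM of at least 1 whose groups did not overlap, and ENSRNOG00000011073, which was that lower one. The replicate numbers of the labels were not taken as pairs (the check is given under the dependence on processing). A library left out is named beside its value.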

Additional observations from a re-analysis of the deposited data

Results flagged for a closer look

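Among 42 groups of 4 to 10 striatum libraries of later ages whose values bear on the genes and gene groups above, 2 held a library far from the others, where chance flags about 1 in 20. For ENSRNOG00000058920 at 19 months, KI M1 stood at 6.1 CPM, next to 4.74 CPM in the nearest of the 10 KI libraries and 3.42 CPM in the lowest, a gap of 0.508 of the range. For the cortex-enriched genes at 19 months, KI M5 stood at a mean log2 CPM of 0.901, next to 0.159 in the nearest KI library and -0.219 in the lowest, a gap of 0.662 of the range. The groups of 3 at 2 and 6 months are too small for this comparison.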

How the results depend on the processing

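The count of 0 genes for KI against WT at 2 months was also 0 with RLE size factors, without a count filter, with a strict filter of 1 CPM, with limma-trend at a pseudocount of 0.1 with and without a filter, with 2 and 6 months or all striatum libraries in 1 fit, and with the identifier part as a block. It was 17 with DESeq2, 2 with limma-trend at a pseudocount of 1 and 4 in the animals of 1 identifier part. Leaving out 1 library gave between 0 (KI M1) and 36 genes (KI M3). Fits added after the data were seen, with each library's length slope or cortex-enriched level as a covariate, gave 0. With the replicate block 1 gene passed, an identifier outside those named. Deviations from the group means correlated at 0.0133, 0.153 and 0.162 for libraries numbered 1, 2 and 3, so the first pair missed 0.1 and the numbers were not read as pairs, although every library correlated best with its own number. The block changed no other call. The 2-month minus 6-month count of 0 was 1 with DESeq2 and between 0 and 100 with 1 library left out (100 without WT M1 of 6 months). The 4 named genes kept their direction in all 20 alternatives each. The striatum-enriched median was 0.182 with an 8-fold definition and ran from 0.059 to 0.153 with 1 library left out, and the cortex-enriched median from -0.226 to -0.1. The cerebellum-enriched median changed sign, from -0.043 to 0.0127. Where no value beside a change shows its cause, the cause was not tested. With 3 animals per genotype, small differences in rare genes were not detectable.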
